A study of Mus musculus with 8 samples.

Results

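A set of 8 genes of the monocyte lineage was followed in granulocyte-macrophage progenitors (GMP), from which neutrophils and monocytes develop in the bone marrow. They were taken by symbol from the deposited table: Ccr2, Cx3cr1, Csf1r, Klf4, Zeb2, Ly86, Ly6c2 and F13a1, which are 8 of its 23131 genes. All 8 passed the filter on low values (a mean of at least 10 normalised counts over all libraries). RNA sequencing was done on GMP sorted from C57BL/6 mice in 2 groups of 4, the controls being littermates of the knockouts. Knockout mice (replicates 5 to 8) carried floxed Rnaseh2b on both alleles together with the Vav-Cre transgene. Control mice (replicates 1 to 4) carried the same floxed alleles and no Cre. The question was what changes in the transcripts of GMP that lack Rnaseh2b, a subunit of the enzyme that removes ribonucleotides from DNA. Vav-Cre is active in blood-forming cells in general, so the deletion is not limited to GMP, and an effect of Cre itself cannot be told apart from that of the deletion. The labels give neither the age nor the sex of the mice.

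Monocytes form from GMP by way of progenitors committed to the monocyte fate, and in the mouse the transcription factor IRF8 acts upstream of KLF4 in that step. CSF1R is the receptor through which the cytokines CSF1 and IL-34 sustain the lineage. CCR2 lets classical monocytes leave the bone marrow towards its ligand CCL2, and CX3CR1, the receptor of fractalkine, is in mice highest on patrolling monocytes and is also carried by precursors of monocytes and dendritic cells. ZEB2 is a zinc finger repressor of transcription in monocytes and dendritic cells, LY86 (MD-1) is the partner of the surface receptor CD180, LY6C2 is a surface protein used to mark classical monocytes in mice, and F13A1 is the catalytic subunit of coagulation factor XIII.

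Stretches of 250 bases before an annotated start of 3 members are shown, because Ly6c2 was the most abundant member and Klf4 and Zeb2, the transcription factors, were low together in 1 knockout library. They are RefSeq sequences of the GRCm38.p6 build on the minus strand, read 5′ to 3′, with motif matches in capitals. The Ly6c2 stretch (chr15:75111972-75112221) holds the PU.1 motif GAGGAAGT, starting 108 bases before the start site (position -108). The Zeb2 stretch (chr2:45117443-45117692) holds the C/EBP motif TTGCNNAA at position -221, and the Klf4 stretch (chr4:55532476-55532725) holds no match. The RefSeq table gives 4 starts for Zeb2 and 2 for Ly6c2, and the stretch shown is in each case the 1 that holds no annotated exon. Of those not printed, 2 of Zeb2 overlap each other and hold the same KLF match (at position -42 or -68) and no C/EBP match. Of Zeb2, 1 more holds none. That of Ly6c2 overlaps the printed stretch, holds the same PU.1 match (there at -142) and has another at -8.
Ly6c2: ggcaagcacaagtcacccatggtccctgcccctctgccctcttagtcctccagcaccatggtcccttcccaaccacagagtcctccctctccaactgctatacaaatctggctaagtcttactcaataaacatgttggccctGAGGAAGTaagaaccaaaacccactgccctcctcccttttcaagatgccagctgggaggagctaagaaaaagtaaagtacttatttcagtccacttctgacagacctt
Zeb2: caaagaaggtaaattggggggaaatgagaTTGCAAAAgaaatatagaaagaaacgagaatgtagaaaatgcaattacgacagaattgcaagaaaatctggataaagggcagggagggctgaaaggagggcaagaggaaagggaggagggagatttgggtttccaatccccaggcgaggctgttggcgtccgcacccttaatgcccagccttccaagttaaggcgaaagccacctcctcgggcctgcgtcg
Klf4: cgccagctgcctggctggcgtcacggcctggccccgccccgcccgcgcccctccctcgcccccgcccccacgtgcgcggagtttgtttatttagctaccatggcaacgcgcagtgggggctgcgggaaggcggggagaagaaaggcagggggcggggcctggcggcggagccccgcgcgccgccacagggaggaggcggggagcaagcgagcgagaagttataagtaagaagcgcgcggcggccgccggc
Both strands were searched for 6 motifs, none of them overlapping in these stretches, and the share of all 32851 promoter stretches of that length with a match was 2.44% for PU.1 and 9.56% for C/EBP. The other motifs were the interferon-stimulated response element (GAAA, 2 bases of any kind, GAAA; 2.98%), the ETS-IRF composite (GGAA, 2 bases of any kind, GAAA; 2.3%), the ZEB E-box CACCTG (17.2%) and the KLF motif GGGCGTGG (4.79%). A match is a description of the letters, not a site or a cause. The first F13a1 stretch held no match and is not printed. Those of Ccr2, Cx3cr1 and Ly86 lie partly or wholly in annotated exons and are not printed, and Csf1r had no entry.

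The sort was checked on the genotype and on marker genes. Rnaseh2b had 75.9 to 127.5 normalised counts in knockouts, against 1207 to 2470.0 in controls (log2 fold change -4.05, limma adjusted p = 3.76e-07). Reads assigned to genes ranged from 28352720 to 45655518 per library, and the lowest member value, Cx3cr1 in 1 library, rested on 695 reads (counting error 3.79%). All 8 GMP-defining markers were measured, with a summed level of 903272 to 988749 normalised counts in knockouts, below the 1014427 to 1088234 in controls, although 0 of them passed the test (3 had an unadjusted p below 0.05, edgeR called 0 and DESeq2 called 2). That sum is mostly the granule protein genes Mpo, with means of 739426 in knockouts and 806205 in controls, and Elane, with 149352 in knockouts and 191100 in controls. With the 8 markers weighted equally the groups overlapped, with log2 differences from the controls that averaged -0.08 to 0.01 in knockouts and -0.07 to 0.07 in controls. Single markers went in opposite directions within that average. Cd34 had a log2 fold change of 0.34 (limma unadjusted p = 0.00605). Fcgr3 had -0.34 and Elane -0.35 (limma unadjusted p = 0.0139 and 0.00462). The DESeq2 calls were 1 higher and 1 lower. Of 11 markers of mature monocytes and macrophages, 7 (C1qa, C1qb, C1qc, Mertk, Spic, Ace and Fabp4) had a mean under 10, and the summed level of all 11 was 960.5 to 1451 in knockouts and 1315 to 1867 in controls. Of the 4 tested, 0 rose and 0 fell, 3 had log2 fold changes below 0, and 1 was lower at an unadjusted p below 0.05. With the 11 weighted equally the groups overlapped, with mean log2 differences of -0.41 to 0.308 in knockouts and -0.627 to 0.375 in controls. Knockout 8 and control 1 had the lowest weights when limma weighted libraries by their spread (0.429 and 0.64). Results of members that rest on them are given with and without them. Marker sums and the calls of single markers, apart from Flt3, are given with all 8 libraries only. Sorted GMP are a mixture, and in bulk RNA fewer cells of a type and less RNA per cell cannot be told apart.

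Of the 8 members, 1 rose in knockouts and 0 fell at a Benjamini-Hochberg adjusted p below 0.05 in limma, run over all 16688 genes tested, of which 1.4% changed, 1.19% rose and 0.21% fell. The member that rose was Ccr2. Only 2 members, Ccr2 and Cx3cr1, had an unadjusted p below 0.05, and both were higher in knockouts. At that unadjusted threshold 1125 of all 16688 genes tested were higher in knockouts and 1074 were lower. edgeR called 1 member as higher and DESeq2 called 2, and neither called a member as lower. Log2 fold changes of knockouts over controls were above 0 for 3 members and below 0 for 5, with a median of -0.03, beside -0.01 over all genes tested. The groups did not overlap for 1 member, whereas they did not overlap for 7.41% of all genes tested (3.99% with every knockout above every control and 3.42% with every knockout below). For the other 6 members the 95% interval of the log2 fold change included 0, so the data set a bound on the difference without showing that the levels were equal.

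**Figure D1:**
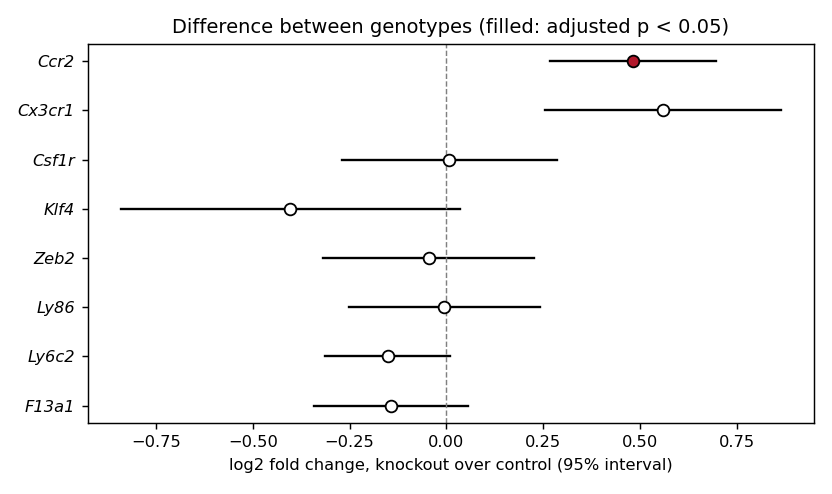
Log2 fold change of each of the 8 genes, knockouts over controls (x axis), with its 95% interval from limma; genes run down the y axis, and a filled point marks an adjusted p below 0.05. Ccr2 is the 1 filled point, and the intervals of Ccr2 and Cx3cr1 lie above 0 while the other 6 include it.

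The chemokine receptor Ccr2 (ENSMUSG00000049103, GRCm38 chromosome 9, 124101950 to 124113557, plus strand) had the clearest difference. Normalised counts were 10484, 8334, 9932 and 10199 in knockouts 5 to 8, against 7475, 7701, 7094 and 5682 in controls 1 to 4. Every knockout lay above every control, with the nearest pair being knockout 6 and control 2. The means were 9737 ± 962 in knockouts and 6988 ± 906 in controls (SD, n = 4 each), a log2 fold change of 0.48 (SE 0.10) or 1.40-fold (95% interval 1.20 to 1.62), with a limma adjusted p of 0.0274. The direction held in all 19 alternative settings, with log2 fold changes of 0.39 to 0.56, and the call held in 14 of them. The call was lost without an intensity trend (adjusted p = 0.193) and without knockout 5 (0.0853), knockout 7 (0.0991), control 3 (0.0617) or control 4 (0.0875). No annotated gene overlaps Ccr2.

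Some markers of another cell type were also higher in knockouts. The summed level of the 13 dendritic cell markers was 7770, 6791, 6778 and 8010.1 in knockouts 5 to 8, against 5675, 5346, 5020 and 5009 in controls 1 to 4. The knockouts lay above the controls here too. Of these markers 8 were tested, 2 rose (Bst2, an interferon-inducible membrane protein, and the cytokine receptor Flt3) and 0 fell, while 4 had a log2 fold change below 0 and the median was 0.06. Most of the difference in the sum came from Bst2, with a mean of 3539 in knockouts and 2315 in controls, and Flt3, with 880.1 in knockouts and 423 in controls. With the markers weighted equally the groups overlapped, with mean log2 differences from the control mean of -0.67 to 0.63 in knockouts and -0.36 to 0.20 in controls. Siglech, Cd209a, Xcr1, Zbtb46 and Batf3 had means under 10 and none was at 0 in every library. The part of such cells in the Ccr2 difference was not tested.

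The fractalkine receptor Cx3cr1 (ENSMUSG00000052336, chromosome 9, 119901616 to 120069879, minus strand) was high in 3 of the 4 knockouts. Its normalised counts were 1713, 1503, 1545 and 984.5 in knockouts 5 to 8, against 1028, 986.1, 868.2 and 941.4 in controls 1 to 4. Knockouts 5 to 7 lay above every control, and knockout 8 lay within the range of the controls. The means were 1436 ± 315 in knockouts and 955.8 ± 68.2 in controls (SD, n = 4 each), a log2 fold change of 0.56 (SE 0.14; 1.47-fold, 95% interval 1.19 to 1.82). The limma adjusted p was 0.0811, so Cx3cr1 was not called, although its fold change was larger than that of Ccr2. Without knockout 8 the log2 fold change was 0.73 with an adjusted p of 0.000318, and knockouts 5 to 7 averaged 1.66 times the control mean. In that setting 2 members (Ccr2 and Cx3cr1) rose and 0 fell, where 2.05% of all genes tested rose and 1.36% fell. Sample numbers in the labels put knockouts 5 to 7 before the controls and knockout 8 after them, so without knockout 8 the genotype cannot be told apart from that order. An antisense gene, Gm33858, overlaps 1.73% of the exon bases of Cx3cr1 and had a mean of 3.9 normalised counts.

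**Figure D2:**
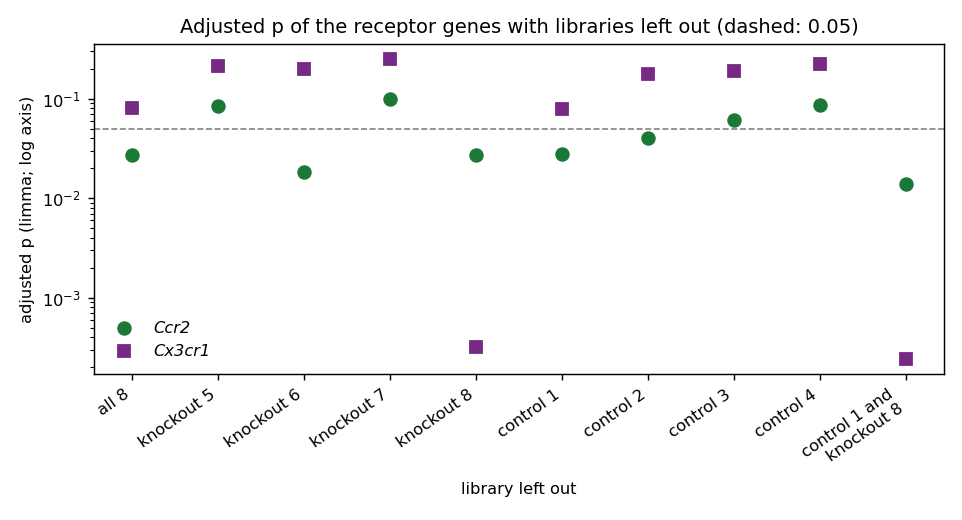
Limma adjusted p (y axis, log scale) of Ccr2 (circles) and Cx3cr1 (squares) with all 8 libraries and with each library left out (x axis); the dashed line is 0.05. Cx3cr1 is below the line where knockout 8 is left out (0.000318), alone or with control 1 (0.000242), and Ccr2 is above it without knockout 5, knockout 7, control 3 or control 4.

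The growth factor receptor Csf1r (ENSMUSG00000024621, chromosome 18, 61100598 to 61132149, plus strand) did not differ detectably. It had 9090.2, 7212, 8753 and 5712 normalised counts in knockouts 5 to 8, against 8784, 7659, 7154 and 6666 in controls 1 to 4. The groups overlapped, and the knockouts held both the highest and the lowest of the 8 values. Mean levels were 7692 ± 1553 in knockouts and 7566 ± 908 in controls (SD, n = 4 each). The log2 fold change was 0.01 (95% interval -0.27 to 0.29; limma adjusted p = 0.988). The gene Hmgxb3, on the opposite strand, overlaps 873 of its 5774 exon bases (15.1%) and had a mean of 1868 normalised counts. The sources used here do not say whether counting used strand, so reads from that overlap cannot be assigned with certainty.

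**Figure D3:**
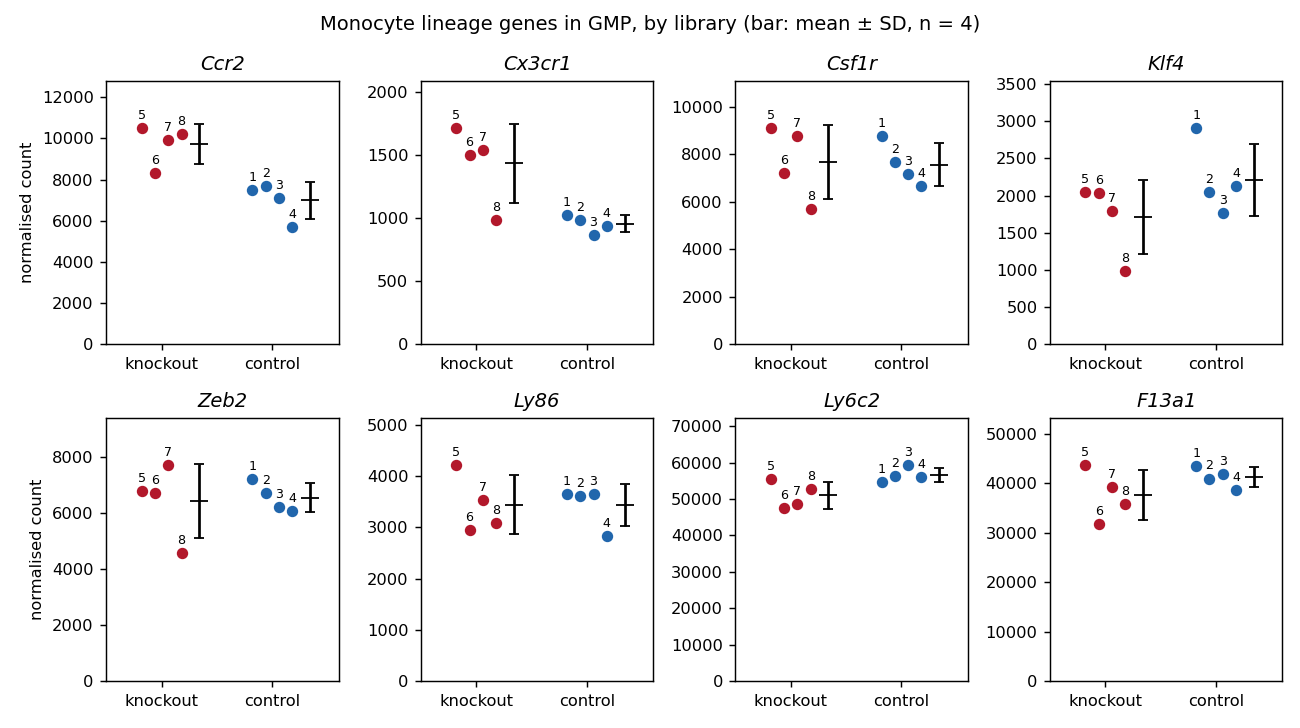
Normalised counts (y axis, from 0) of the 8 genes in each library, with knockouts 5 to 8 (red) left of controls 1 to 4 (blue); the bar is the mean ± SD (n = 4). All 4 knockouts lie above the controls for Ccr2, 3 of 4 do for Cx3cr1, and knockout 8 is the lowest of the 8 libraries for Klf4, Csf1r and Zeb2.

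The transcription factor Klf4 (ENSMUSG00000003032, chromosome 4, 55527143 to 55532466, minus strand), whose upstream stretch is shown above, had the most negative fold change of the 8 genes without passing the test. Normalised counts were 2042, 2038, 1792 and 980.7 in knockouts 5 to 8, against 2903, 2052, 1760.2 and 2134 in controls 1 to 4. The 3 other knockouts lay among controls 2 to 4, and the extremes were knockout 8 at the low end and control 1 at the high end. Mean levels were 1713 ± 502 in knockouts and 2212 ± 487 in controls (SD, n = 4 each), with a log2 fold change of -0.40 (95% interval -0.84 to 0.04; limma adjusted p = 0.422). Leaving out knockout 8 gave -0.15 (adjusted p = 0.56), and leaving out control 1 as well gave -0.02 (adjusted p = 0.941).

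Zeb2 (ENSMUSG00000026872, chromosome 2, 44983632 to 45117395, minus strand), the zinc finger repressor, showed the same low library. Its normalised counts were 6760.2, 6697, 7695 and 4574 in knockouts 5 to 8, against 7206, 6709, 6193 and 6048 in controls 1 to 4. Knockout 7 was the highest and knockout 8 the lowest of the 8 values, and the groups overlapped. Mean levels were 6432 ± 1320 in knockouts and 6539 ± 528 in controls (SD, n = 4 each), with a log2 fold change of -0.05 (95% interval -0.32 to 0.23; limma adjusted p = 0.92), which was 0.11 without knockout 8. The antisense gene Zeb2os, with a mean of 801.1 normalised counts, overlaps 3.27% of its exon bases.

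Ly86 (ENSMUSG00000021423, chromosome 13, 37345208 to 37419036, plus strand), the CD180 partner, had nearly equal group means. Its normalised counts were 4216, 2940.3, 3528 and 3079 in knockouts 5 to 8, against 3648, 3615, 3653 and 2837 in controls 1 to 4. The highest value was in a knockout and the lowest in control 4, well below the other controls. Mean levels were 3441 ± 575 in knockouts and 3438 ± 401 in controls (SD, n = 4 each), with a log2 fold change of -0.01 (95% interval -0.25 to 0.24; limma adjusted p = 0.991). Its partner gene Cd180, named here after its values were seen, had 739.8 ± 33.5 normalised counts in knockouts and 728.8 ± 53.8 in controls (SD, n = 4 each; adjusted p = 0.947).

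The surface marker Ly6c2 (ENSMUSG00000022584, chromosome 15, 75108158 to 75111970, minus strand) was the most abundant of the 8 genes. Its normalised counts were 55412, 47412, 48541 and 52662 in knockouts 5 to 8, against 54731, 56227, 59268 and 56122 in controls 1 to 4. Knockouts 6 to 8 lay below every control, and knockout 5 lay above control 1 only. Mean levels were 51007 ± 3703 in knockouts and 56587 ± 1913 in controls (SD, n = 4 each), with a log2 fold change of -0.15 (95% interval -0.31 to 0.01; limma adjusted p = 0.408). The near copy Ly6c1 shares 13.9% of the 50-base windows of Ly6c2, so the split of reads between them is uncertain. Ly6c1, named here after its values were seen, had 2288 ± 96.5 normalised counts in knockouts and 2445 ± 149 in controls (SD, n = 4 each; adjusted p = 0.635).

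F13a1 (ENSMUSG00000039109, chromosome 13, 36867178 to 37050244, minus strand), the factor XIII subunit, lies 294963 bases from Ly86. Its normalised counts were 43689, 31801, 39307 and 35756 in knockouts 5 to 8, against 43607, 40989.5, 41860 and 38715 in controls 1 to 4. Knockout 5 and control 1 had almost the same value, and knockouts 6 and 8 lay below every control. Mean levels were 37638 ± 5067 in knockouts and 41293 ± 2034 in controls (SD, n = 4 each), with a log2 fold change of -0.14 (95% interval -0.34 to 0.06; limma adjusted p = 0.552).

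Levels of different genes were compared per kilobase of the gene length in the deposited table. Ly6c2 led with 18620 ± 1352 normalised counts per kb in knockouts and 20650 ± 698 in controls, followed by F13a1 with 5585 ± 752 in knockouts and 6127 ± 302 in controls (SD, n = 4 each throughout). These levels lay above those of 99.5% and 98.2% of all genes in the controls. Csf1r had 1332 ± 269 per kb in knockouts and 1310 ± 157 in controls, and Ccr2 had 1440.0 ± 142 in knockouts and 1034 ± 134 in controls. Ly86 had 947.3 ± 158 per kb in knockouts and 946.6 ± 110.4 in controls, and Klf4 had 561.9 ± 165 in knockouts and 725.5 ± 160 in controls. The 2 lowest were Zeb2, with 318.4 ± 65.3 per kb in knockouts and 323.7 ± 26.1 in controls, and Cx3cr1, with 318.8 ± 69.8 in knockouts and 212.2 ± 15.1 in controls. Even Cx3cr1 lay above 64.8% of all genes in the controls.

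The order of levels per kb differed between the groups at 2 places. In knockouts the mean of Ccr2 came just before that of Csf1r, and that of Cx3cr1 just before that of Zeb2, while in controls each of these pairs stood the other way round. Neighbours in the knockout order whose libraries overlapped were Ccr2 and Csf1r, Csf1r and Ly86, Klf4 and Cx3cr1, and Cx3cr1 and Zeb2. In controls the overlapping neighbours were Ccr2 and Ly86, and Ly86 and Klf4, so Csf1r stood above Ccr2, and Zeb2 above Cx3cr1, without overlap. Within single libraries Csf1r exceeded Ccr2 per kb in 3 of 4 knockouts and 4 of 4 controls, the exception being knockout 8 (Ccr2 1509, Csf1r 989.2). Zeb2 exceeded Cx3cr1 per kb in 2 of 4 knockouts and 4 of 4 controls.

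**Figure D4:**
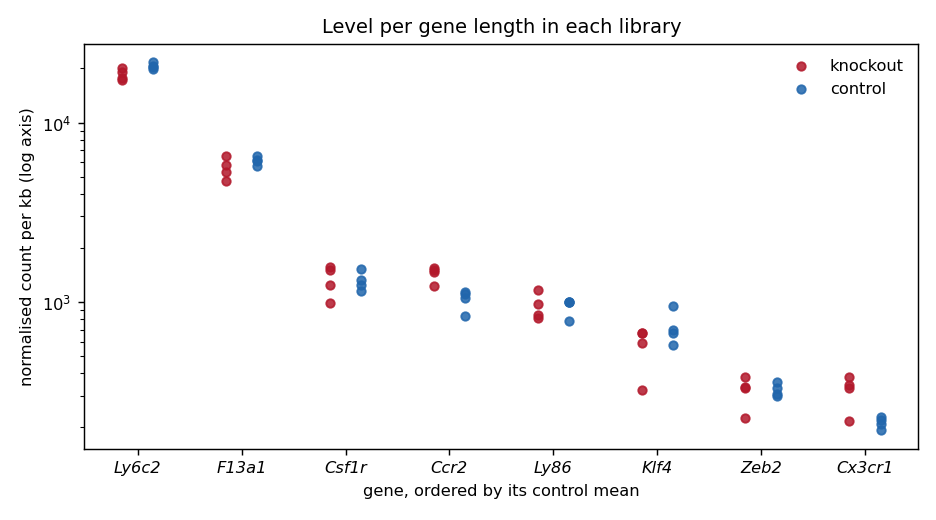
Level of each gene as normalised counts per kb of gene length (y axis, log scale) in the 4 knockouts (red) and the 4 controls (blue), with genes on the x axis ordered by their control mean. Ly6c2 and F13a1 stand apart above the other 6 genes in both groups, and the knockouts of Ccr2 and Cx3cr1 reach the levels of Csf1r and Zeb2.

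Libraries differed in which members were low. Knockout 8 was the lowest of the 8 libraries for 3 members (Klf4, Csf1r and Zeb2), whereas 16.5% of all genes were lowest there. Relative to the mean of knockouts 5 to 7, knockout 8 stood at 50.1% for Klf4, 62% for Cx3cr1, 64.9% for Zeb2 and 68.4% for Csf1r. The other members stood at 86.5% (Ly86), 93.4% (F13a1), 104.4% (Ly6c2) and 106.4% (Ccr2), so Ccr2 was high in knockout 8 where Cx3cr1 was not. Knockout 5 was the highest library for 5 members (Ly86, Csf1r, Ccr2, Cx3cr1 and F13a1), whereas 12.8% of all genes were highest there. Control 4 was the lowest of the 8 libraries for Ly86 and Ccr2, whereas 8.9% of all genes were lowest there. It lay below the control mean for all 8 members, and the share of all genes that did so was not computed.

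**Figure D5:**
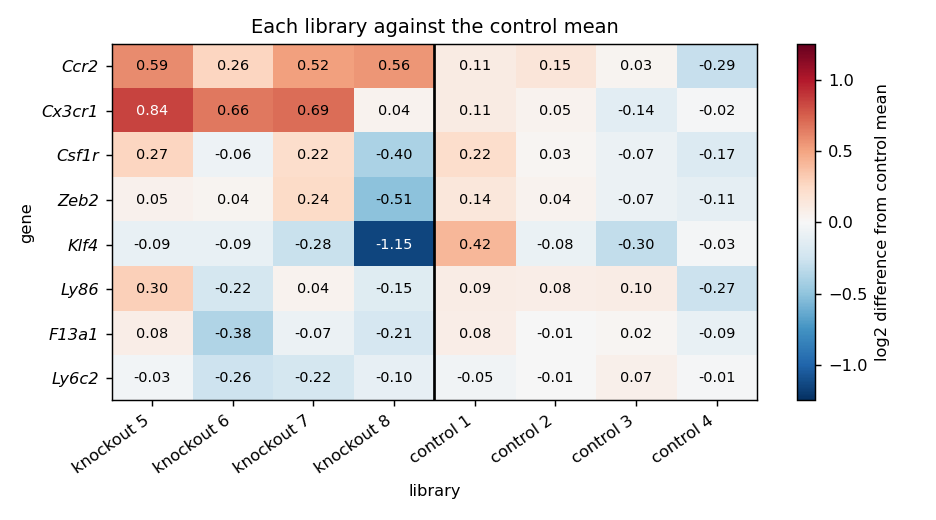
Log2 difference of each library (x axis; knockouts left of the line, controls right) from the mean log2 value of the controls for each gene (y axis), as colour and printed value. Ccr2 is above 0 in all 4 knockouts, Cx3cr1 is at 0.66 to 0.84 in knockouts 5 to 7 and 0.04 in knockout 8, and the lowest value is Klf4 in knockout 8 (-1.15).

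Marker sums of other lineages also set knockout 8 apart from knockouts 5 to 7, and some markers in them differed between the genotypes. Mast cell and basophil markers (7 of 7 tested) summed to 4951, 7751, 5336 and 17580.3 normalised counts in knockouts 5 to 8, against 7508 to 10749 in controls. Eosinophil markers (6 of 7 tested) summed to 7958, 10052, 5325 and 22146 in knockouts 5 to 8, against 17680 to 30905 in controls. Knockout 8 was thus the highest of all 8 libraries for the first sum and lay within the controls for the second. Stem cell and multipotent progenitor markers (4 of 8 tested) summed to 316.9, 553.9, 391.4 and 790.1 in knockouts 5 to 8, against 352 to 413.4 in controls. Megakaryocyte markers (4 of 5 tested) summed to 1883 to 3487 in knockouts, highest in knockout 8, against 1135 to 1546 in controls, and erythroid markers (4 of 6 tested) to 125.2 to 479.2, against 161.2 to 205 in controls. Single markers passed the limma test in both directions. Selp and Vwf, adhesion genes of platelets and endothelium, rose (2 of the 4 megakaryocyte markers), with log2 fold changes of 2.84 and 1.41. Ear1 and Ear2, granule ribonuclease genes from a family of near copies, fell (2 of the 6 eosinophil markers, all 6 of which had log2 fold changes below 0, median -1.28), with -2.28 and -2.42. Gzmb, a granule protease gene, fell (1 of the 7 mast cell and basophil markers), with -2.62. These calls included knockout 8, which lay on the side of the other knockouts for all 5 genes. No marker of these lists was at 0 in all libraries. Klf4, Cx3cr1, Zeb2 and Csf1r were lower in knockout 8 than in knockouts 5 to 7, and the part of these cells in that was not tested.

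The spread between mice was larger in knockouts than in controls for 7 of the 8 members, as a coefficient of variation. It ranged from 7.3 to 29.3% in knockouts (median 18.4%) and from 3.4 to 22% in controls (median 9.9%). Over all genes 52.6% had the larger spread in knockouts. With knockout 8 left out it was 3 of the 8 members, beside 39% of all genes.

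Members also varied together between libraries once each group's mean was subtracted, which is a description of 8 libraries that share their depth and cell mixture. Klf4, Zeb2, Csf1r and Cx3cr1, grouped after their values were seen, had Pearson r of 0.82 to 0.93 with each other, the highest being Klf4 with Cx3cr1. With control 1 and knockout 8 left out, r over 6 libraries was -0.43 for Klf4 with Zeb2, -0.26 for Klf4 with Csf1r and 0.09 for Cx3cr1 with Zeb2, so these 3 likenesses rested on those libraries. The other 3 pairs kept a positive but lower r over the 6 libraries, at 0.61 for Klf4 with Cx3cr1, 0.61 for Csf1r with Cx3cr1 and 0.56 for Csf1r with Zeb2. Ly86 with F13a1 had r of 0.90 over 8 libraries and 0.89 over 6. Csf1r with F13a1 had 0.68 over 8 libraries and 0.92 over 6, and Csf1r with Ccr2 had 0.38 and 0.90. Ccr2 with Cx3cr1, the chemokine receptor genes, had -0.01 over 8 libraries and 0.42 over 6.

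Among the 10445 other genes compared, those with the most similar deviations were found for each member in the same way. Because they were picked for the highest r among so many genes, a high r follows from the picking. The 6 libraries are among the 8 used to pick them, so r over 6 is not a separate check. Csf1r was most like Irf8, the transcription factor upstream of Klf4 (r = 0.99 over 8 libraries, 0.96 over 6), and H13. Klf4 was most like Cdkn2c, a cell cycle inhibitor (0.99 over 8, 0.87 over 6), and Emsy. Zeb2 was most like the transcription factor gene Mef2d (0.99 over 8, 0.94 over 6) and Baiap2, which rose in knockouts. Cx3cr1 was most like Banp and Lrrc8a (both 0.99 over 8; 0.95 and 0.96 over 6). Ccr2 was most like Ms4a4b (0.98 over 8, 0.98 over 6) and Mlkl, the effector of necroptosis (0.94 over 8, 0.97 over 6). Ly86 was most like Trafd1 and Nhlrc3, F13a1 like Hdac7 and Nek8, and Ly6c2 like Ttc4 and Rplp0 (0.97 to 0.98 over 8 for these 6). Of these 16 genes 1, Baiap2, passed the test between genotypes.

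Other genes of the monocyte lineage were counted beside the members. Of 30 such genes, all tested, 1 rose and 0 fell, with 17 log2 fold changes above 0 and 13 below and a median of 0.14, and 10 had an unadjusted p below 0.05 (7 higher and 3 lower in knockouts). DESeq2 called 2 as higher and 1 as lower, and edgeR called 1 as higher. The gene that rose was Cd68, a lysosomal membrane protein of monocytes and macrophages. Its normalised counts were 1327, 1082, 1093 and 1113 in knockouts 5 to 8, against 964.9, 820.8, 803.3 and 719.9 in controls 1 to 4. All knockouts lay above all controls (log2 fold change 0.48, limma adjusted p = 0.0414), and the call was lost without an intensity trend and in 6 of the 8 fits that left out 1 library (adjusted p 0.0812 to 0.176). Ccr1, named here after its values were seen, had 187.3, 148.9, 180.4 and 476.4 in knockouts 5 to 8, against 55.7, 104.8, 107.4 and 128.8 in controls 1 to 4. This chemokine receptor gene was thus higher in every knockout than in any control without passing the test (log2 fold change 1.21, adjusted p = 0.111). Lgals3, the gene of a secreted galectin, also named after its values were seen, went the other way, with 553.7, 301.7, 398.3 and 401.3 in knockouts 5 to 8, against 564.3, 659.3, 848.2 and 615.2 in controls 1 to 4. Every knockout lay below every control, again without a call (log2 fold change -0.71, adjusted p = 0.0637).

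Of 22 other chemokine receptor genes 11 were in the table and 5 were tested, of which 0 rose and 0 fell (2 had an unadjusted p below 0.05, edgeR called 0 and DESeq2 1). These 2 were Ccr1, which is also among the 30 monocyte lineage genes above, and Cxcr2 (limma unadjusted p = 0.00293 and 0.011). Cxcr4, which holds progenitors in the bone marrow, had 7068 ± 1296 normalised counts in knockouts and 8379 ± 1783 in controls (SD, n = 4 each; limma adjusted p = 0.503). Cxcr2, a receptor of neutrophils, had 337.1 ± 39.4 in knockouts and 247.6 ± 41.5 in controls (SD, n = 4 each; adjusted p = 0.211). Of 7 ligands of the member receptors 3 were in the table and 2 were tested, and neither Csf1 nor Ccl2 was called (limma adjusted p = 0.778 and 0.821). Both ligand genes had 0 calls in edgeR and DESeq2 and 0 unadjusted p below 0.05. Csf1 had 478.1 ± 175 normalised counts in knockouts and 405.2 ± 60.7 in controls, and Ccl2 had 50.7 ± 37.1 in knockouts and 29.7 ± 12.9 in controls (SD, n = 4 each).

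Of 18 partners and near relatives of the members 15 were tested, of which 1 rose and 0 fell. It was Flt3, a receptor kinase related to Csf1r that marks early and dendritic cell progenitors. Flt3 had 874.2, 699.8, 992.8 and 953.7 normalised counts in knockouts 5 to 8, against 482.8, 548.8, 403.5 and 256.7 in controls 1 to 4. The groups did not overlap, with a log2 fold change of 1.10 (limma adjusted p = 0.01), and the call was lost without an intensity trend (0.136) or without knockout 7 (0.0503). Among 23 genes of CSF1R signalling 22 were tested, and 1, the kinase gene Fyn, rose while 0 fell. Fyn had 672.5, 693, 671.4 and 641 normalised counts in knockouts 5 to 8, against 373.9, 566.7, 384.8 and 426.2 in controls 1 to 4. These groups did not overlap either (log2 fold change 0.63, limma adjusted p = 0.0281), and the call was lost without an intensity trend and in 6 of the 8 fits that left out 1 library (adjusted p 0.0532 to 0.101). Unadjusted limma p below 0.05 were found for 3 of the 15 genes, all higher in knockouts, and for 6 of the 22 genes (4 higher and 2 lower). In each of these 2 lists edgeR called 1 gene as higher and DESeq2 called 2, and neither called a gene as lower.

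Of 15 transcription factor genes of granulocyte and monocyte fate 14 were tested, of which 0 rose and 0 fell in limma, edgeR and DESeq2, and 1 had an unadjusted p below 0.05. Irf8 had 22060, 17233, 19642 and 13155 normalised counts in knockouts 5 to 8, against 23262, 19696, 18614 and 17342 in controls 1 to 4. It was lowest in knockout 8, as Klf4 and Csf1r were (log2 fold change -0.15, limma adjusted p = 0.695). Jun, a subunit of the AP-1 factor, had 16942, 22571, 15277 and 8413 in knockouts 5 to 8, against 16634, 15274, 10472 and 16985 in controls 1 to 4. Knockout 8 was again the lowest library (log2 fold change 0.03, adjusted p = 0.973).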

How the data were processed

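RNA of sorted GMP (lineage-negative, Kit-positive, CD34-positive, high in CD16/32) was sequenced as strand-specific poly(A) libraries, per the labels' protocols. The build mm10 and the tools GSNAP 2020-12-16, featureCounts 2.0.1, R 3.5.1, DESeq2 1.30.1 and FastQC are listed, without their settings, in the submitters' processing notes. Neither the annotation nor the use of strand is given in the sources used here. The authors deposited a signal value per gene and library, a read count scaled by a factor of that library and given to 1 decimal. Of 169267 values above 0, 99.997% were whole multiples of 1 read (tolerance 0.051 normalised counts), which gave the depth of each library.

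Groups came from the labels, which give 4 replicates of each genotype, taken here as mice. The p-values set the difference between genotypes against the spread between these mice, which limma moderates with that of the other genes. Genotypes were compared in R 4.3.3 with limma 3.58.1, fitted with an intensity trend to log2 of the normalised count plus 1, over 16688 genes (mean at least 10), with Benjamini-Hochberg adjustment and a threshold of 0.05. On that scale the changes of low genes are understated. On the recovered reads, edgeR 4.0.16 (quasi-likelihood) called 210 genes as higher and 31 as lower, beside 199 and 35 in limma, and DESeq2 1.42.0 called 420 and 138. Scripts were tested on simulated data. Other alternatives were pseudocounts, filters, scalings, array weights and libraries left out.

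The members, lists and tests were chosen with earlier results of these data known. From each gene list up to 5 genes past the threshold are named, or the 2 of highest mean where none passed; cell type markers are given as sums, with those past the threshold named. Also named are, for each member, the 2 genes of most similar deviations (mean at least 50). Gene coordinates are those of the deposited table and equal GENCODE M21 for all 8 members. Precision from read numbers covers counting error alone, because PCR copies are not independent molecules.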

Additional observations from a re-analysis of the deposited data

Results flagged for a closer look

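Of 58 groups of 4 libraries examined (members, named list genes and marker sums in each genotype), 4 had a highest or lowest library far from the other 3, and chance gives about 1 in 20 such groups. Ly86 in control 4, at 2837.1 normalised counts, lay below the other controls, of which the nearest had 3614.9. Cd68 in knockout 5, at 1327.0, lay above the other knockouts, of which the nearest had 1112.5. The erythroid marker sum was 479.2 in knockout 8, the highest of the knockouts. The B cell marker sum was 1346.8 in knockout 5, also the highest of the knockouts.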

How the results depend on the processing

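Depth limits no member: the fewest reads behind a member value were 695. The number of members that rose was 0 without an intensity trend, 2 with array weights or DESeq2 (Ccr2 and Cx3cr1), 0 to 2 with 1 library left out and 2 without control 1 and knockout 8 together; the number that fell was 0 throughout. Over all genes 93 rose and 11 fell without an intensity trend, 547 and 454 with array weights, 420 and 138 with DESeq2, and 651 and 789 without control 1 and knockout 8. With 1 library left out 117 to 342 rose and 12 to 227 fell, with 342 and 227 without knockout 8 and 268 and 103 without control 1. The median log2 fold change of all genes was between -0.020 and 0.023 in every setting run.

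Cx3cr1 was called in 4 of 19 settings, namely array weights (log2 fold change 0.65, adjusted p = 0.00243), DESeq2 (0.59, 0.0028), without knockout 8, and without control 1 and knockout 8 (0.77, 0.000242). Its adjusted p was 0.0576 in edgeR and up to 0.28 elsewhere. Signs of log2 fold changes near 0 turned in some settings. Ly86 became 0.030 with equal totals, 0.051 with array weights, 0.019 with quantile normalisation, 0.010 in edgeR, 0.004 in DESeq2, 0.074 without control 1 and knockout 8, and -0.108 to 0.065 with 1 library left out. Zeb2 became 0.073 with array weights, 0.157 without both libraries, and -0.141 to 0.109 with 1 left out. Csf1r was -0.080 to 0.143 with 1 library left out. Csf1 was -0.029 to 0.336 with 1 left out and -0.004 without both, Ccl2 was -0.030 to 1.087 and Jun -0.170 to 0.305 with 1 left out, and Irf8 was 0.077 without both. The causes were not tested. No other member, and none of Cd68, Cxcr4, Cxcr2, Flt3 and Fyn, changed sign in the settings run. With Ccl2 the filter at a mean of at least 50 gave no value. No paired analysis was run, because the groups share no replicate numbers and the sources used here name no litter for each library. Any effect of litter was therefore not modelled.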

Other observations

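Marker lists not described above were also measured. Of the 15 neutrophil-committed markers 13 were tested and 1 fell, Fcnb, a granule protein gene, while 10 of the 13 had log2 fold changes below 0. Their summed level was 189731 to 263286 normalised counts in knockouts and 225850 to 284854 in controls, and was mostly Prtn3 and Ctsg. The median log2 fold change of the 13 was -0.395. At an unadjusted limma p below 0.05, 7 were lower and 2 higher in knockouts. DESeq2 called 2 as lower and 0 as higher. With all 15 weighted equally, log2 differences from the control mean averaged -1.455 to -0.606 in knockouts. They averaged -1.048, 0.701, -0.017 and 0.364 in controls 1 to 4, so control 1 lay within the knockouts. Of the 6 B cell markers 2 were tested and neither passed the test, with sums of 1109 to 1347 in knockouts and 993.9 to 1243 in controls. The single tested T and NK cell marker, Nkg7, did not pass but was lower in knockouts at an unadjusted limma p below 0.05. The sum of its list was 8985.5 to 12812.5 in knockouts and 9616 to 14362 in controls. That sum was almost wholly Nkg7, because Cd3d and Klrb1c had means under 10 and Cd3e, Cd3g and Ncr1 were absent.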
